A study of Homo sapiens with 3 samples.

Results

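The genes described here are the angiopoietins, their TIE receptors and close relatives, 7 genes chosen by symbol in a gene table of assembly GRCh38.p14: TEK, TIE1, PTPRB, ANGPT1, ANGPT2, ANGPTL2 and ANGPTL4. All 7 were found among 20037 protein-coding genes. They were read in 1 ATAC-seq library (replicate 2) of hCMEC/D3, an immortalized line derived from human brain microvascular endothelium, cultured on collagen until confluent. In ATAC-seq the Tn5 transposase cuts open chromatin, and read ends, called tags, pile up where DNA is accessible. Only this ATAC library was analysed here, with no treatment and no other cell type to compare, so no replicate error and no test between groups could be given, and every statement below describes this library. The values of the 2 RNA libraries of the line were not used here, because nothing available pairs their transcript identifiers with genes.

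TEK encodes TIE2, a receptor tyrosine kinase of endothelial cells that keeps vessels quiescent and tight when it is active. ANGPT1, made largely by pericytes and other perivascular cells, activates TIE2, whereas ANGPT2, made and stored by endothelial cells, can block or activate it depending on context. TIE1 is a related receptor without a well-defined ligand of the angiopoietin family that modifies TIE2 signalling, and PTPRB encodes VE-PTP, a phosphatase that removes phosphate from TIE2. ANGPTL2 and ANGPTL4 resemble angiopoietins in sequence but are not ligands of the TIE receptors. ANGPTL2 is a secreted factor linked to inflammation, and ANGPTL4 inhibits lipoprotein lipase and is induced by hypoxia and by fatty acids.

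The bases just before the annotated start were available from RefSeq (GRCh38.p14) for 4 of the 7 genes, and are shown because in each of the 4 the whole stretch of 250 bases lay inside a peak. Over 15843 protein-coding genes with such an entry, 55.1% had the stretch wholly inside a peak and 72.0% had a peak within 1 kb of the start. The stretches are chr9:27108975-27109224 on the + strand for TEK, chr1:43300732-43300981 on the + strand for TIE1, chr9:127122636-127122885 on the - strand for ANGPTL2 and chr19:8363905-8364154 on the + strand for ANGPTL4, each written 5′ to 3′ along the gene so that its last base precedes the start. Capitals mark matches to the motifs listed after them, apart from GGAA.
TEK: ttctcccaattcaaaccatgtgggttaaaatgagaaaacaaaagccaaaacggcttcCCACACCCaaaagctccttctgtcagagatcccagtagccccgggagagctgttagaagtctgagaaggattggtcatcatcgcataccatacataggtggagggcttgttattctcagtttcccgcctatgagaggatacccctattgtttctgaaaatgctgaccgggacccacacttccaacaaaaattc
TIE1: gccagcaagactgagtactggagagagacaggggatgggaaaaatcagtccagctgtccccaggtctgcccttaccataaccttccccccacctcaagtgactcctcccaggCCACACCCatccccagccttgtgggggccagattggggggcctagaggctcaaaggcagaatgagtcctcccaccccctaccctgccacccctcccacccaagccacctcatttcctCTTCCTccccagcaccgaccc
ANGPTL2: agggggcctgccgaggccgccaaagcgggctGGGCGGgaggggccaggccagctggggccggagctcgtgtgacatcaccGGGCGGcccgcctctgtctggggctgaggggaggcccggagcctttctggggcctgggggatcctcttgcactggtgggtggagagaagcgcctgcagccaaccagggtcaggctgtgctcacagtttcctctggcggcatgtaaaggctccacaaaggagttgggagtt
ANGPTL4: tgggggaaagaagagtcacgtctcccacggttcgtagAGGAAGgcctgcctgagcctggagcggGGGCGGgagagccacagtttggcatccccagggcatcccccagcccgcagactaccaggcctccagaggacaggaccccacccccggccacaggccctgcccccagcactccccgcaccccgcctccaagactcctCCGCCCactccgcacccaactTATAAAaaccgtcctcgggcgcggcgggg

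The letters searched, on both strands, were the ETS core GGAA, its longer ETS form CCGGAAG, the other longer ETS form AGGAAG (both contain the core), the GATA factor motif GATAA, the forkhead factor motif TGTTTAC, the GC box GGGCGG, the motif of Kruppel-like factors GGGTGTGG, the AP-1 site TGAGTCA, the E-box CACGTG, the hypoxia factor motif TACGTG and the TATA box TATAAA. Both receptor genes held GGGTGTGG on the strand opposite to the gene, which reads CCACACCC in the lines above, at position -193 for TEK and -138 for TIE1, counted back from the base before the start as -1. This motif was in 3.14% of the 15843 stretches and in neither angiopoietin-like gene. AGGAAG was present in TIE1, at -21, and in ANGPTL4, at -213, against 28.6% of all stretches. GGGCGG was present 2 times each in ANGPTL2 and ANGPTL4, against 55.8% of stretches with at least 1 match, and in neither receptor gene. ANGPTL4 held TATAAA at -29, and 9.35% of stretches held this motif anywhere. GGAA was found in all 4 and in 92.5% of all stretches, with 3 matches in TEK, 4 in TIE1, 1 in ANGPTL2 and 2 in ANGPTL4. These are matches of letters and were not tested as binding sites.

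Base composition varied among the 4 stretches. The GC share was 46.4% for TEK and 61.6% for TIE1, compared with 68.4% for ANGPTL2 and 68.8% for ANGPTL4, and the median over all stretches was 62.0%. The TIE1 stretch held 1 CpG and the TEK stretch 5, compared with 12 for ANGPTL2, 16 for ANGPTL4 and a median of 17, and 3.12% of all stretches had fewer CpG than TIE1.

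Across the 7 genes and 10 kb either side there were 58 broad peaks, each belonging to 1 gene of the 7. Every gene had at least 1 peak at a gene end, meaning within 1 kb of either end of its extent, and the background was 72.8% of protein-coding genes, or from 71.9% to 82.4% of the 1000 genes nearest in length to each of the 7. Every gene also had at least 1 peak inside and away from its ends, against a background of 55.9%. That background depends on length, and among the 1000 genes nearest in length it was 36.2% for ANGPTL4, the shortest of the 7, and 92.4% for ANGPT1, the longest. In all, 89.8% of protein-coding genes had a peak somewhere in the gene or its flanks. Of the 58 peaks, 9 lay at an end, 37 inside a gene away from its ends and 12 in the flanks. The inside share was 63.8%, compared with 53.9% when peaks were placed in the same way over all protein-coding genes, a value not matched on length. TEK alone gave 16 of the 37 inside peaks, so this share rests largely on 1 gene. The gene table gives no exons, so exonic and intronic peaks were not told apart. Pileup, the number of overlapping extended tags that the authors' peak caller reports for a peak, had a median of 26.7 tags over the 58 peaks, compared with 21.6 over all 106415 peaks of the library. Peaks at the ends went the other way, with a median of 30.2 tags compared with 41.4 for end peaks of all protein-coding genes. Flank peaks did too, at 19.5 compared with 27.1 tags, and only inside peaks were higher, at 25.1 compared with 20.5 tags. These medians pool the peaks of all genes, and TEK gave 17 and ANGPT2 11 of the 58. Taken gene by gene, the median pileup was above that of genes of similar length at TEK, ANGPT2 and ANGPTL4. It was below at TIE1, PTPRB and ANGPT1, and at ANGPTL2 by little (28.1 compared with 28.5 tags). The median fold enrichment was 4.27 over the 58 peaks, compared with 4.49 over all peaks. Requiring a fold enrichment of at least 4 left an end peak at 3 of the 7 genes (TIE1, ANGPTL2 and ANGPTL4), against 56.0% of all protein-coding genes.

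**Figure D1:**
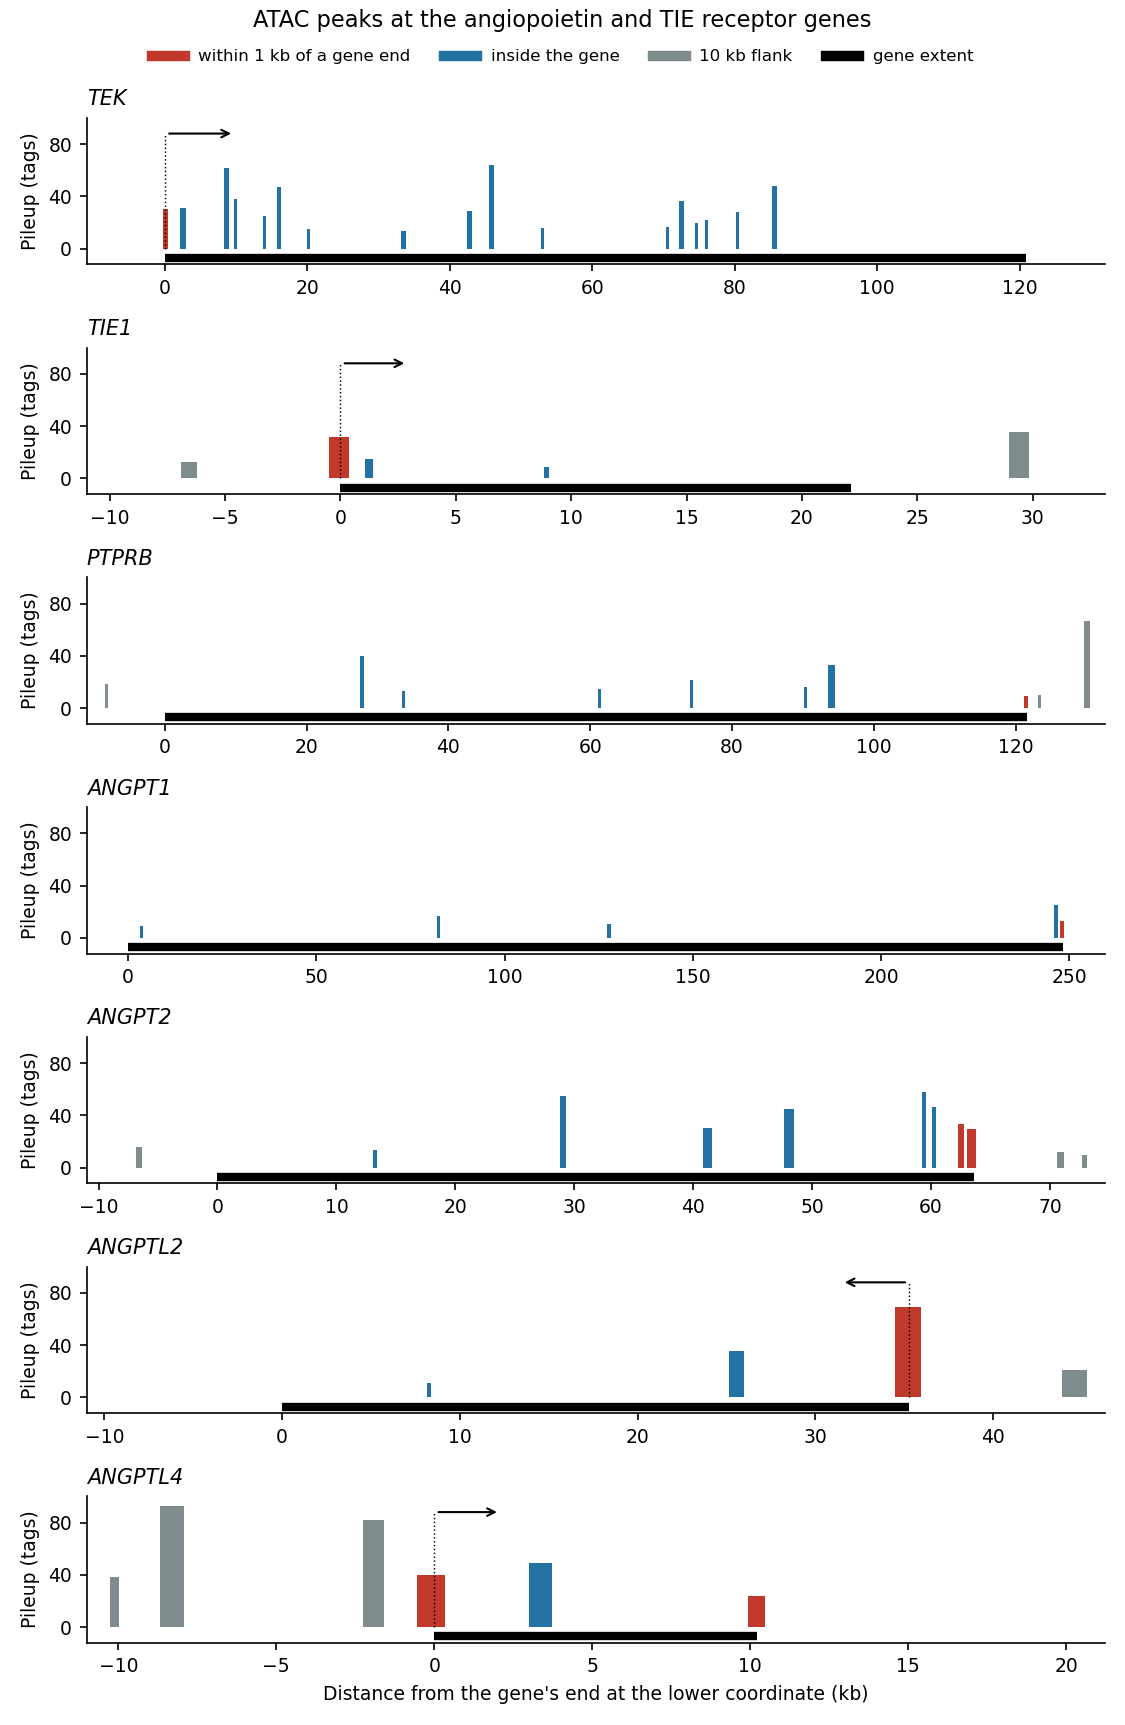
Peaks at each of the 7 genes, with distance from the end of the gene at the lower coordinate (kb) on the x axis and pileup (tags) on the y axis. Bars are single peaks coloured by position, the narrowest of them widened to be visible, the black bar is the gene extent, and arrows mark the annotated start and direction where the promoter table gives them. The 17 peaks of TEK all lie before the final 35.1 kb of the gene, 11 of them in the part before its midpoint and 6 past it, and the 5 of ANGPT1 are all at or below 25.1 tags.

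The number of peaks was set against the 1000 protein-coding genes nearest in length, since a longer gene can hold more peaks. TEK, TIE1, PTPRB, ANGPT2 and ANGPTL4 had more peaks than the median of their length group, ANGPTL2 had as many and ANGPT1 had fewer. Being above that median held for 5 of the 7 genes, against a background of 42.6% of protein-coding genes. TEK, ANGPT2 and ANGPTL4 stood highest, each with more peaks than over 90% of the genes of similar length. The exact shares with fewer peaks were 91.6% for TEK, 91.3% for ANGPT2 and 91.7% for ANGPTL4.

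**Figure D2:**
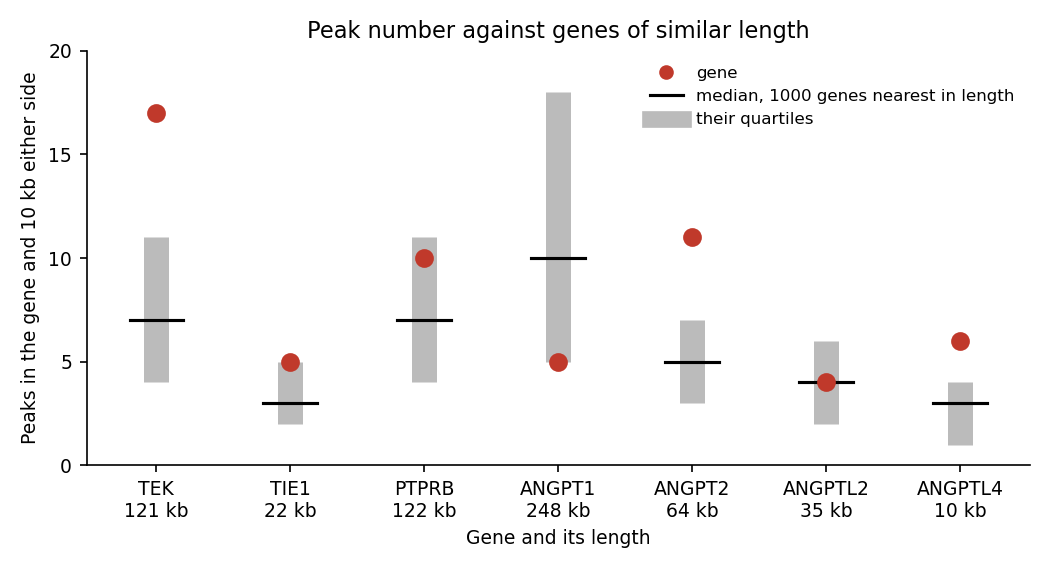
Number of peaks in the gene and 10 kb either side (y axis) for each of the 7 genes (x axis, with gene length). Red points are the genes, black lines the median and grey bars the quartiles of the 1000 protein-coding genes nearest in length. TEK with 17, ANGPT2 with 11 and ANGPTL4 with 6 peaks lie above the third quartile, and ANGPT1 with 5 peaks lies at the first quartile.

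TEK, the TIE2 receptor gene, is 121 kb long (chromosome 9, 27109225 to 27230174, + strand) and held 17 peaks, compared with a median of 7 (quartiles 4 and 11) for genes of similar length. Of these, 16 lay inside the gene, and 95.6% of genes of similar length had fewer inside. The start was covered by a peak of 625 bp whose pileup was 30.2 tags, 3.73-fold over background, and 27.5% of the 806 genes of similar length with an end peak had a lower end pileup. Peaks well inside the gene were higher than the one at the start. The highest had 64.0 tags and a fold of 6.66 (27154716 to 27155372, with its centre 45.8 kb past the start), followed by 61.9 tags and a fold of 7.10 (27117569 to 27118208, 8.66 kb past the start). Next in pileup were peaks of 48.3 tags (27194409 to 27195106) and 46.9 tags (27124961 to 27125567). The remaining 12 inside peaks ran from 13.3 to 37.9 tags.

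The TEK peaks fell into runs. From the start to 27129534 there were 7 peaks, and 6 peaks lay between 27179629 and 27195106. Beyond the last of them no peak was called over the final 35.1 kb of the gene or the 10 kb after it, and the 10 kb before the start held none either. Peaks covered 6.14% of the gene and its flanks, compared with a median of 2.89% for genes of similar length. The local background, the tag level that the peak caller expects from the surrounding 10000 bp, was a median of 6.32 tags at TEK peaks and 3.19 in the length group. Fold is pileup over that background, and 9 of the 17 TEK peaks reached a fold of 4, compared with 66460 of all 106415 peaks. The 9 peaks left at TEK were more than 86.2% of genes of similar length had when filtered in the same way.

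TIE1, the second receptor, is 22.1 kb long (chromosome 1, 43300982 to 43323108, + strand) and held 5 peaks, compared with a median of 3. Its start was covered by a peak of 862 bp with 31.4 tags and a fold of 4.71 (43300472 to 43301333), a pileup close to that at the start of TEK. With 1 library, the difference of these values has no error. Inside the gene there were only weak peaks, of 14.8 tags at 1.24 kb and 8.82 tags at 8.92 kb past the start, the latter close to the lowest pileup of the whole list, 8.0 tags. The highest peak of the TIE1 window lay in the flank past the gene, 6.87 kb from its end, with 35.5 tags and a fold of 6.36 (43329978 to 43330813), and overlapped no annotated gene. TIE1 dropped to 2 peaks when a −log10 q of at least 5 was required and to 3 without the flanks.

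PTPRB, the gene of the TIE2 phosphatase VE-PTP, is 122 kb long (chromosome 12, 70515870 to 70637429) and held 10 peaks, compared with a median of 7. Its only end peak, at the higher coordinate, had 9.60 tags and a fold of 3.14 (70637076 to 70637618), and of the 804 genes of similar length with an end peak 0.498% had a lower one. Inside the gene, a peak of 532 bp had 39.6 tags and a fold of 10.2 (70543415 to 70543946), and 99.5% of all peaks in the library had a lower fold. That peak also overlapped PTPRB-AS1, a noncoding RNA gene. The highest pileup of the window, 66.8 tags with a fold of 7.39 (70645553 to 70646379), lay 8.12 kb outside the gene, within PTPRR, the neighbouring phosphatase gene. At −log10 q of at least 5, PTPRB kept 6 peaks and no end peak.

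The ligand genes differed in number and height of peaks. ANGPT1, which encodes the TIE2 agonist, is the longest of the 7 at 248 kb (chromosome 8, 107249482 to 107497918) and held 5 peaks, compared with a median of 10 (quartiles 5 and 18), and 73.0% of genes of similar length had more. The end peak at the higher coordinate had 13.0 tags and a fold of 3.33 (107497069 to 107497990). The highest peak, with 25.1 tags and a fold of 6.28, lay 1.76 kb inside that end (107495796 to 107496155). The other 3 peaks had 9.19, 16.5 and 10.8 tags, and no peak was called over 118 kb between the last of these and the highest peak. All 3 sat at the lowest background the caller can assign, 2.37 tags, a value that depends on the genome size given to it. The highest pileup of ANGPT1 was above that of 14.0% of genes of similar length that had a peak. With −log10 q of at least 5 or a fold of at least 4, ANGPT1 kept 2 peaks, and the end peak was in neither set.

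ANGPT2, the ligand gene that endothelial cells express, is 63.6 kb long (chromosome 8, 6499632 to 6563245) and held 11 peaks, compared with a median of 5 (quartiles 3 and 7). Peaks were densest towards the end at the higher coordinate, where 4 peaks lay within 4.06 kb of it. Going towards that end they had 57.6, 46.4, 33.2 and 29.2 tags, the last 2 being end peaks. Their folds were 4.52, 3.63, 2.62 and 2.49, over a local background between 11.1 and 12.1 tags. At a fold of at least 4, ANGPT2 kept no end peak. Deeper in the gene a peak of 482 bp had 54.9 tags over a background of 3.70, a fold of 11.9 (6528443 to 6528924), and 99.95% of all peaks had a lower fold. It was followed by peaks of 30.5 tags (fold 7.58) and 44.9 tags (fold 7.03). The 3 flank peaks were weaker, at 9.98 to 16.1 tags.

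ANGPT2 lies wholly inside MCPH1, a gene of chromosome condensation, and all 11 peaks overlapped MCPH1 too. The count for ANGPT2 can therefore not be assigned to 1 of these genes. Set side by side, the pileups of the ligand genes overlapped: those of ANGPT1 ran from 9.19 to 25.1 tags and those of ANGPT2 from 9.98 to 57.6 tags. Per 100 kb of gene and flanks there were 1.86 peaks at ANGPT1 and 13.2 at ANGPT2.

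ANGPTL2, a secreted angiopoietin-like factor gene, is 35.3 kb long (chromosome 9, 127087348 to 127122635, - strand) and held 4 peaks, the same as the median of its length group. It had the highest and widest end peak of the 7 genes, 1485 bp with 69.5 tags and a fold of 4.97 (127121836 to 127123320), which covered the start. Of the 824 genes of similar length with an end peak, 86.3% had a lower one. The other 3 peaks had 10.7 and 35.4 tags inside the gene and 20.8 tags upstream of it. ANGPTL2 lies inside RALGPS1, a gene of a Ras family regulator, and all 4 peaks overlapped that gene as well.

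ANGPTL4, the lipoprotein lipase inhibitor gene, is the shortest at 10.2 kb (chromosome 19, 8364155 to 8374370, + strand) and held 6 peaks, compared with a median of 3 (quartiles 1 and 4). The highest peaks among all 7 genes lay upstream of its start. One had 92.7 tags and a fold of 7.38 (8355474 to 8356248, centred 8.29 kb before the start), and 99.5% of all peaks had a lower pileup. Another had 82.0 tags and a fold of 5.37 (8361915 to 8362557, centred 1.92 kb before the start). Neither overlapped an annotated gene.

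The start of ANGPTL4 was covered by a peak of 39.7 tags whose fold was 2.16 (8363617 to 8364482), and only 0.702% of all peaks had a lower fold, over a local background of 17.8 tags, the highest of the 58 peaks. A peak inside the gene had 49.4 tags and a fold of 3.61. The far end carried a peak of 24.0 tags and a fold of 5.33, which also overlapped the noncoding gene RAB11B-AS1. A sixth peak, of 38.3 tags, reached the flank by its edge alone and was lost when an overlap of 200 bp was required. Without the flanks ANGPTL4 had 3 peaks and a highest pileup of 49.4 tags.

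Pileup and fold thus ordered these peaks differently. By pileup, ANGPTL4 and ANGPTL2 came first, and by fold the inside peaks of ANGPT2 and PTPRB did. The end pileup was below the median of genes of similar length in 6 of the 7 genes, all but ANGPTL2, against a background of 49.9%. The highest pileup anywhere in the window was above the median of genes of similar length in 5 of the 7 genes, against a background of 50.0%, and below it in TIE1 and ANGPT1. At PTPRB and ANGPTL4 the highest peak lay in a flank. Without the flanks their highest pileups were 39.6 and 49.4 tags.

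**Figure D3:**
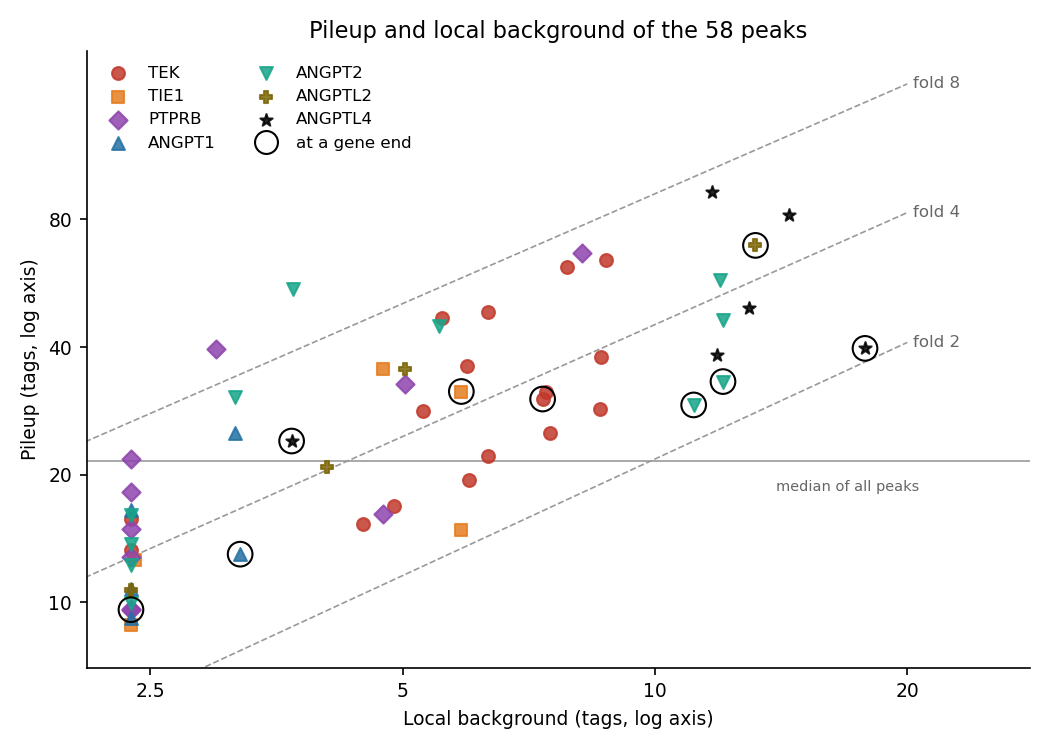
Pileup (tags, log axis) against local background (tags, log axis) for the 58 peaks, 1 symbol per gene, with circles around end peaks, dashed lines of equal fold and a grey line at the median pileup of all peaks. End peaks of ANGPT2 and the start peak of ANGPTL4 sit at backgrounds above 11 tags and between the lines of fold 2 and fold 4, whereas the peaks of highest fold in ANGPT2 and PTPRB sit at backgrounds below 4 tags.

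Other genes of the pathway were read in the same way from a list of 42, which also takes in further angiopoietin-like genes. Of these, 34 had an end peak (81.0%, background 72.8%), with a median end pileup of 46.6 tags compared with 45.7 over all protein-coding genes and 31.4 over the 7 genes. The share differed by role. Among the 6 other angiopoietin and angiopoietin-like genes, 1 had an end peak, ANGPTL6 with 61.5 tags and a fold of 8.94. An end peak was found for 6 of 7 receptor partners and secreted modulators, 15 of 16 cytoplasmic adaptors and effectors, 6 of 6 targets of FOXO1 or TIE2 signalling and 6 of 7 gene regulators. The exceptions, named after their values were seen, were LECT2, PAK1 and FLI1. Each had peaks elsewhere in the gene or its flanks, 1 at LECT2, 4 at PAK1 and 19 at FLI1.

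The highest end pileups in that list were at CCN2 and CCN1, matrix-associated signalling genes, and SHC1, an adaptor of receptor tyrosine kinases. CCN2 had 104.0 tags with a fold of 1.96, CCN1 99.9 tags with a fold of 2.31 and SHC1 84.3 tags with a fold of 2.72. FOXO1, the transcription factor that TIE2 signalling restrains, had an end peak of 46.0 tags, near the median of 45.7 over all protein-coding genes. The gene held 13 peaks in all, compared with a median of 7 for genes of similar length, 83.0% of which had fewer. Other genes of the list lay below their median, such as PTPN11 with 2 peaks compared with 6. At a fold of at least 4, the count of the 42 genes with an end peak was 17 (40.5%), below the 56.0% of protein-coding genes at that filter, whereas without the filter the share of the list was above the background.

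**Figure D4:**
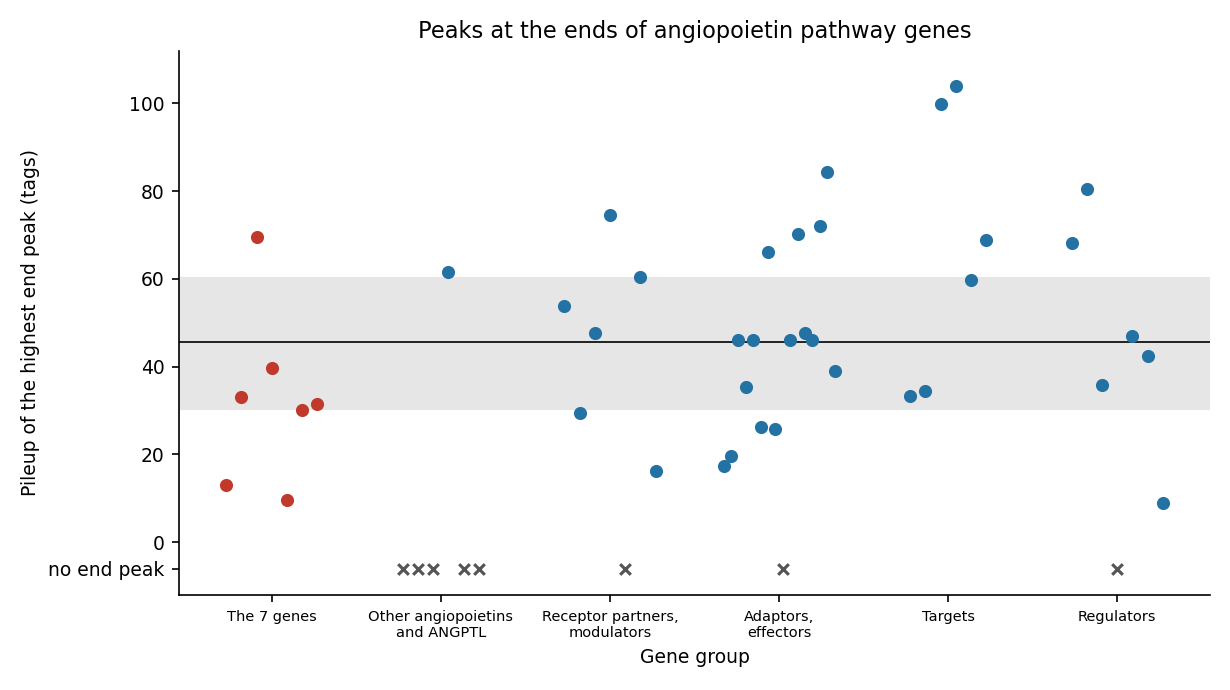
Pileup (tags) of the highest peak at a gene end for the 7 genes (red) and 42 other genes of the pathway (blue) by role, with crosses for genes without an end peak. The grey band and line are the quartiles and the median over all protein-coding genes that have such a peak, and 6 of the 7 red points lie below that median of 45.7 tags.

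Markers were used to check the label of the cells, against the same background of 72.8%. An end peak was present at 13 of 14 endothelial markers (all but FLI1), at 6 of 10 markers of pericytes and smooth muscle, at 8 of 8 haematopoietic markers and at 4 of 6 neural markers, with median end pileups of 38.6, 38.1, 34.8 and 25.7 tags, each range of end pileups overlapping the others. The endothelial list includes TEK and TIE1, and without them 11 of 12 had an end peak. End peaks alone, counted at either end of a gene, therefore did not separate endothelial from haematopoietic genes in this list. Peaks at starts were not told apart for the markers. With lists this short none of the shares is read as differing from the background. Of the pericyte markers, KCNJ8 and ABCC9, a pair of channel subunit genes, had no peak in the gene or 10 kb either side, whereas PDGFRB and RGS5 had end peaks of 38.5 and 56.8 tags. Whether other cells add to the peaks at ANGPT1 was not tested.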

How the data were processed

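One ATAC-seq library of hCMEC/D3 was analysed, with 22188172 tags after the caller kept 1 tag per position. Per the file headers, the authors called broad peaks with MACS 2.2.7.1 without a control, shifting tags by -100 bp, extending them to 200 bp and using an effective genome size of 1870000000 bp, the mouse preset. The deposited values are pileup signal, fold enrichment (a ratio to local background), −log10 p-value and −log10 q-value per peak, used only to describe and filter peaks of this list. The header names no genome build. The submitters' processing notes name GRCh38 and mm10 without roles, and 66.7% of 15843 annotated starts in GRCh38.p14 had a peak within 100 bp, against at most 5.27% after offsets of 2 to 50 kb.

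Peaks were assigned with Python 3.11.15 and pandas 2.3.3 by an overlap of at least 1 bp, a step checked on simulated data. Local background was computed as (pileup + 1)/fold - 1, approximate for broad peaks, and its floor was 2.37 tags. The floor follows from the number of tags, the extension and the effective genome size. A larger genome size would lower it and raise the fold of peaks at the floor, and calls with another size were not tested. Genes of similar length were the 1000 nearest in length. The table of gene extents gives no strand, so either end counted, and strand came from the RefSeq promoter table for TEK, TIE1, ANGPTL2 and ANGPTL4. PTPRB, ANGPT1 and ANGPT2 were not matched there. Where a gene had several entries, the most upstream start was used, as for TEK with 2 entries. Motifs were searched in the 250 bases before the start, without the 50 bases after it. The 7 genes and all lists were chosen with earlier results of these data known. Named were all 7 genes, the 3 pathway genes with the highest end pileup, pathway genes without any peak and genes overlapping a described peak. Other genes named, such as FOXO1, ANGPTL6 and the markers, were picked after their values were seen. The pathway list leaves out 1 item, which is not reported here. Alternatives were stricter peaks, other windows, other overlaps and other length groups.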

Additional observations from a re-analysis of the deposited data

How the results depend on the processing

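No paired analysis was possible because a single ATAC library was used and no test was made. With a fold of at least 4, the genes with an end peak went from 7 to 3, the total of peaks from 58 to 33, the pathway genes with an end peak from 34 to 17 and the background share of all protein-coding genes from 72.8% to 56.0%. Keeping the same number of peaks as that filter left (66460), but by highest pileup, gave 37 peaks, 5 genes with an end peak and 65.6% of protein-coding genes. A −log10 q of at least 5 gave 39 peaks, 5 genes with an end peak and 66.7% of protein-coding genes. That background was 71.5% with an overlap of 200 bp and 69.2% and 79.2% with end windows of 500 and 2500 bp. At starts alone it was 72.0%, and the 4 genes with a known start all had a peak there. The alternative by highest pileup and all alternatives for the pathway list were chosen after seeing the data. These values moved by construction where fewer peaks or smaller windows were used. The number of genes above the median of their length group was 4 to 6 under each alternative run. Of 63 values for single genes under alternatives, peak numbers and highest pileups together, 46 stayed within 1.5-fold and 17 moved further. The highest pileups were unchanged in every gene at a −log10 q of at least 5. That filter takes away the weaker peaks, so these values say little about stability. The lowest pileup in the list was 8.0 tags. The level needed for a call also varies with the local background, which ran from 2.37 to 17.8 tags at the 58 peaks, and what other depths would call was not tested.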

Other observations

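Peaks between 10 and 50 kb outside the 7 genes were read after the other values were known, and their number was not set against other genes. ANGPTL4 had 6 such peaks before its start and 5 past its end. The highest, with 101 tags and a fold of 4.82 (chromosome 19, 8389783 to 8390895), overlapped RAB11B, a gene of vesicle recycling, and RAB11B-AS1. On the other side the highest had 54.7 tags and overlapped KANK3.

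TEK, with 17 peaks within the gene, had 2 such peaks on each side, the highest with 18.0 tags before its start and 24.1 tags past its end. TIE1 had 2 before its start, the highest with 38.3 tags and a fold of 8.52, and 4 past its end, the highest with 73.8 tags over ELOVL1. PTPRB had none on the side of the lower coordinate and 3 on the other, all of at most 36.2 tags. ANGPT1 had 2 and 1, of at most 27.0 tags. At ANGPT2, a peak of 54.8 tags and a fold of 6.50 lay 35.8 kb outside the end at the higher coordinate (chromosome 8, 6599016 to 6599794), again within MCPH1. ANGPTL2 had 6 and 4, the highest with 55.2 and 52.1 tags, both within RALGPS1.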
